A study of Mus musculus with 8 samples.

Results

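miR-22 is a microRNA made from a single hairpin, and both of its mature arms, miR-22-3p and miR-22-5p, were counted in every library. They are 2 of the 697 mature mouse miRNAs listed in the deposited counts, and they were chosen by their names there, mmu-miR-22-3p and mmu-miR-22-5p. Small RNA was sequenced from cardiomyocytes isolated from 4 sham-operated mice and 4 mice with transverse aortic constriction (TAC), a banding of the aortic arch that loads the left ventricle with pressure. The mice were males operated on at 2 months of age, and their hearts were taken at 14 weeks, which the methods of the study give both as the time after surgery and as the age of the mice. By those methods a library holds cells of 1 heart, so each library is called a mouse here. The groups differ by the operation alone as far as the labels say, and the labels give no strain. All libraries were made from total RNA of cells isolated by perfusion of the heart, and 1 of 4 equal portions of the cells of a heart went into small RNA sequencing. Whether sham and TAC hearts were processed on the same days is not given in the sources used here.

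miRNAs are cut from hairpin transcripts by Drosha and Dicer, and usually one strand of the resulting duplex is retained in an Argonaute protein while the other is degraded. Bases 2 to 8 of the retained strand, the seed, pair with target mRNAs. miR-22 is abundant in heart and skeletal muscle. It is known to promote the hypertrophic growth of cardiomyocytes, mice that lack it have a blunted hypertrophic response, and Sirt1 and Hdac4 are among its described targets.

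Both mature arms are shown first, because their seeds define what each arm could pair with. The sequences are those of RefSeq on the build GRCm38.p6, written 5′ to 3′ with the seed in capitals.
miR-22-5p: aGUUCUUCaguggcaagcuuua
miR-22-3p: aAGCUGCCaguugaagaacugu
Each arm is 22 bases long. miR-22-5p lies at chr11:75463734-75463755 and miR-22-3p at chr11:75463772-75463793, both on the plus strand. The G and C content is 40.9% in miR-22-5p and 45.5% in miR-22-3p. None of the other mouse mature miRNAs in the RefSeq table of 1679 holds either seed, so neither arm belongs to a larger seed family there. The longest stretch that an arm shares with another mature miRNA is 10 bases for miR-22-5p, with miR-146a-3p, and 9 bases for miR-22-3p, with miR-3966.

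The hairpin shows how the arms face each other, with both arms in capitals.
Mir22 hairpin: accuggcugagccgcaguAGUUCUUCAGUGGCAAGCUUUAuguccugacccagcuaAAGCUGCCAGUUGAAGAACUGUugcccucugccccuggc
The hairpin is 95 bases long and lies at chr11:75463716-75463810. A stretch of 16 bases separates the arms. The longest perfect complement between them is AGUUCUUCA, bases 1 to 9 of miR-22-5p, against UGAAGAACU, bases 12 to 20 of miR-22-3p. The seed of miR-22-5p is therefore inside this longest run, whereas the seed of miR-22-3p is outside it. Only the longest unbroken run was searched for, so the seed of miR-22-3p may also be paired within the hairpin. In the GENCODE annotation the hairpin lies within exon 2 of the long noncoding host gene Mir22hg, which spans chr11:75461539-75466676.

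The scaling between libraries rests on a pair of reference miRNAs, those that the methods of the study use. The methods describe this pair as unaltered and state that miRNA qPCR verified it. Because the scaling rests on them, their sequences are given.
miR-126a-3p: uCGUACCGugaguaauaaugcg
miR-19b-3p: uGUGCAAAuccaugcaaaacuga
miR-126a-3p is an endothelial miRNA made from an intron of Egfl7, and miR-19b-3p belongs to the family of the miR-17 to miR-92 cluster. Neither seed is that of miR-22.

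The sham libraries held 4005668 to 5392576 miRNA tags each, and the TAC libraries 5507169 to 7798943. A tag is 1 sequenced small RNA, and the tags carry no molecular identifiers, so that counting errors and intervals given here cover counting error only. The cardiomyocyte markers, namely miR-1a-3p, miR-133a-3p, miR-133b-3p, miR-208a-3p and miR-499-5p, were all detected and together made 164065 to 200879 counts per 1000000 miRNA counts (CPM) in sham and 198337 to 248793 CPM in TAC libraries. The endothelial markers, both arms of miR-126a, summed to 49248 to 72051 CPM in sham and 29274 to 34557 CPM in TAC libraries. Of the 3 erythroid markers the sum was 418 to 1503 CPM in sham and 43.8 to 550 CPM in TAC libraries, and of the 5 leukocyte markers it was 1305 to 2455 CPM and 1051 to 1448 CPM. The 7 fibroblast and smooth muscle markers summed to 44144 to 52122 CPM in sham and 39109 to 46123 CPM in TAC libraries. The 6 epithelial markers summed to 1406 CPM in TAC mouse 4, against 223 to 401 CPM in the other libraries. No marker of these lists was at 0 over the libraries. The part of these differences in the values of miR-22 was not tested, and in bulk RNA fewer cells of a type and less RNA per cell cannot be told apart.

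miR-22-3p was one of the most abundant miRNAs of these cardiomyocytes. It made 4.94%, 6.74%, 7.17% and 6.95% of all miRNA counts in sham mice 1 to 4. In TAC mice 1 to 4 it made 7.82%, 7.77%, 6.99% and 6.25%. The groups overlapped, with the lowest share in sham mouse 1 and the highest in TAC mouse 1. The mean share was 6.45% ± 1.02 for sham mice and 7.21% ± 0.744 for TAC mice (SD, n = 4 each), a log2 difference of 0.17 that did not pass a two-sided exact permutation test (p = 0.286) and was 0.047 without sham mouse 1. In counts, these shares were 228627, 363215, 351674 and 278226 tags in sham and 430587, 605857, 443026 and 451234 tags in TAC libraries, so that the counting error was at most 0.209% and far below the spread between mice, 15.8% of the mean in sham and 10.3% in TAC.

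By its mean share miR-22-3p stood at rank 2 of all miRNAs. Above it was miR-1a-3p, the most abundant muscle miRNA, in all 8 libraries. Next below was miR-133a-3p, which restrains growth and proliferation of heart muscle cells, with 6.74% ± 1.77 of the counts in sham and 6.27% ± 0.956 in TAC libraries (SD, n = 4 each). miR-133a-3p exceeded miR-22-3p in sham mouse 1. There were 0.533, 1.14, 1.09 and 1.33 counts of miR-22-3p per count of miR-133a-3p in sham mice and 1.08, 1.12, 1.23 and 1.19 in TAC mice, so that miR-22-3p was the higher of these neighbours in the other 7 libraries. Within the single libraries miR-22-3p took ranks 4, 3, 2 and 2 in sham and rank 2 in each TAC library. Counts of different miRNAs also carry the preferences of adapter ligation, so that the order is one of tags and not of molecules.

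miR-22-5p was a minor product. In sham mice 1 to 4 it was counted 462, 394, 449 and 228 times, which is 99.8, 73.1, 91.5 and 56.9 CPM. In TAC mice 1 to 4 it was counted 469, 748, 680 and 609 times, or 85.2, 95.9, 107 and 84.3 CPM. Per miRNA count the groups overlapped, and sham mouse 4 was the lowest. The means were 80.3 ± 19.2 CPM in sham and 93.2 ± 10.8 CPM in TAC (SD, n = 4 each), a log2 difference of 0.24 (two-sided exact permutation test, p = 0.343) that was 0.085 without sham mouse 4. Its counting error of 3.66% to 6.62% was smaller than the spread between mice, 23.9% of the mean in sham and 11.6% in TAC.

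The rank of miR-22-5p within a library was 136, 152, 141 and 161 in sham and 134, 125, 119 and 133 in TAC. Every TAC library placed it above every sham library by rank, which was true of 8.97% of the 223 miRNAs with a mean above 100 counts. This order was not seen in its CPM, where the groups were apart with TAC on top for 3.59% of those miRNAs but for neither arm of miR-22.

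**Figure D1:**
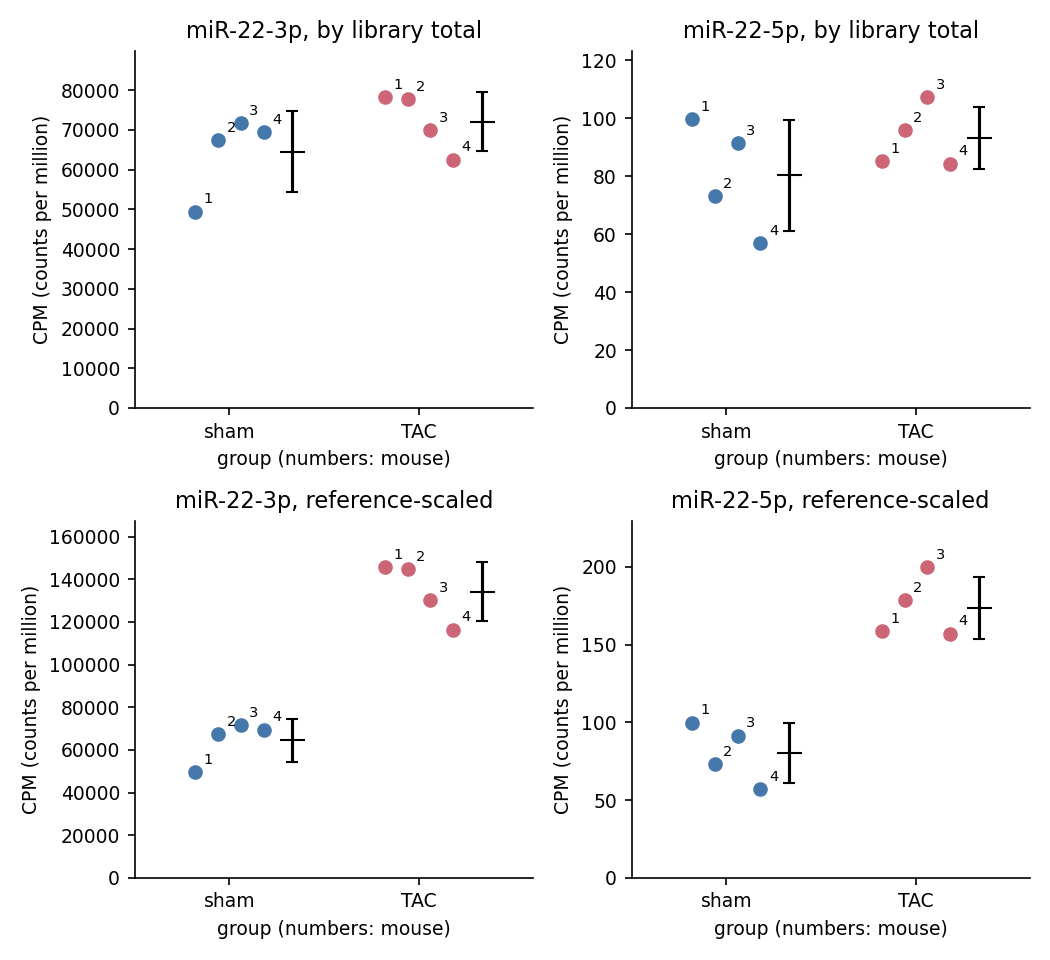
Level of miR-22-3p and miR-22-5p in each library, in counts per 1000000 miRNA counts and after reference scaling. Points are single mice marked by their number, and bars give the mean with SD of 4 libraries per group. Per miRNA count the groups overlap for both arms, whereas after reference scaling all 4 TAC libraries lie above all 4 sham libraries.

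The group change depended on the scale set between libraries. miR-126a-3p and miR-19b-3p both made a smaller share of the counts in every TAC library than in any sham library. Setting them equal between the groups multiplies the TAC library sizes by 0.537, which adds 0.90 on the log2 scale to the change of every miRNA. The median log2 fold change of the 223 miRNAs tested was 0.61 on that scale, -0.082 with TMM normalization and -0.29 by library totals. One of the reference miRNAs, miR-126a-3p, is itself the endothelial marker whose sum fell in share, from 49248 to 72051 CPM in sham to 29274 to 34557 CPM in TAC libraries. With miR-126a-3p alone as reference the log2 fold changes of miR-22-3p and miR-22-5p were 0.96 and 1.01. With miR-19b-3p alone they were 1.16 and 1.21. The part of the endothelial fall in the change below was not tested.

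On the reference scale miR-22-3p rose in TAC cardiomyocytes. The sham values stayed as above, at 49398, 67355, 71669 and 69458 CPM, and the TAC values became 145650, 144714, 130165 and 116371 CPM. The TAC group lay above the sham group without overlap, with means of 134225 ± 13854 and 64470 ± 10201 (SD, n = 4 each). edgeR's quasi-likelihood test gave a log2 fold change of 1.06 with a standard error of 0.13 (Benjamini-Hochberg adjusted p = 2.05e-04).

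miR-22-5p rose by a like amount on the same scale. From the sham values of 99.8, 73.1, 91.5 and 56.9 CPM, the TAC values were 159, 179, 199.8 and 157 CPM. These groups did not overlap either, and the mean in TAC was 174 ± 20.1 CPM. The log2 fold change was 1.11 with a standard error of 0.20 (edgeR, adjusted p = 0.00128). Both arms thus passed both thresholds, which were 0.05 for the adjusted p and 1.7 for the fold change, as did 36.8% of the tested miRNAs in the same direction. Groups without overlap on this scale were found for 54.7% of them. With the factor computed anew in each of the 70 arrangements of the mice, the two-sided exact permutation test gave p = 0.0286 for either arm, the smallest value it can give.

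Relative to the other miRNAs, the change of miR-22 was above the middle. It exceeded the median of the tested miRNAs by 0.45 for miR-22-3p and by 0.51 for miR-22-5p on the log2 scale. Ordered from the largest increase, miR-22-3p was at place 34 and miR-22-5p at place 30 of 223. Under the other scalings tried these places were 32 to 35 and 23 to 30. A scaling moves the change of every miRNA by nearly the same amount, so it could hardly move these places. Leaving out a library could move them. On the reference scale with 1 library left out they ran from 24 to 56 for miR-22-3p and from 17 to 48 for miR-22-5p. The lowest places were those without sham mouse 1 for miR-22-3p and without sham mouse 4 for miR-22-5p.

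With TMM or library totals, which use no reference miRNAs, neither arm passed. TMM gave log2 fold changes of 0.37 for miR-22-3p (edgeR, adjusted p = 0.130) and 0.43 for miR-22-5p (edgeR, adjusted p = 0.145), and an adjusted p below 0.05 with a higher level in TAC was found for 4.93% of the miRNAs. Library totals gave 0.16 (edgeR, adjusted p = 0.384) and 0.21 (edgeR, adjusted p = 0.419), where 1.35% passed in that direction. The change was positive for both arms under every scaling, and its size moved with the factor between the groups.

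The clean tags, the reads left after cleaning whether or not they fell on a miRNA, gave a scale between these. Their totals were taken from the supplement of the study and not from the deposited counts. Per clean tag, all TAC libraries exceeded all sham libraries in miR-22-3p, with a log2 difference of 0.51 (two-sided exact permutation test, p = 0.0286). The same was seen for 15.7% of the tested miRNAs. For miR-22-5p the log2 difference was 0.58 and the groups overlapped (exact permutation test, p = 0.0857). In edgeR with clean tags as library sizes the log2 fold changes were 0.49 (adjusted p = 0.0662) and 0.57 (adjusted p = 0.0775), and 8.07% of the miRNAs passed the adjusted p in that direction.

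**Figure D2:**
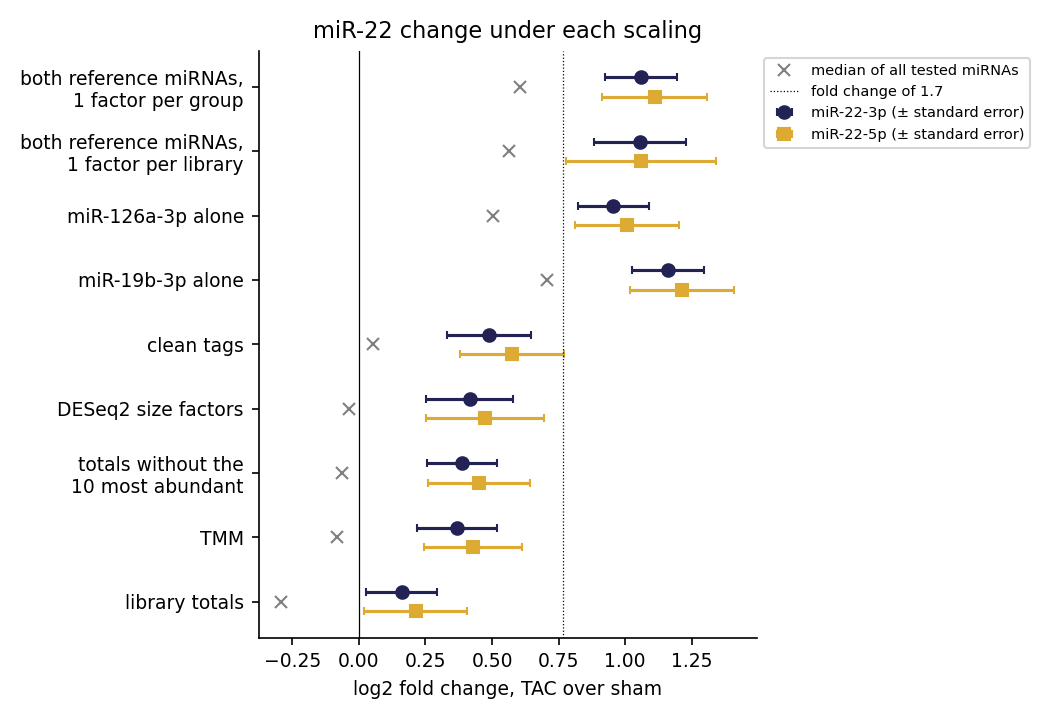
Log2 fold change of miR-22-3p and miR-22-5p, TAC over sham, under each scaling between libraries, with standard errors, with crosses at the median of the 223 miRNAs tested and a dotted line at a fold change of 1.7. Both arms lie to the right of the median under every scaling drawn, and the values run from 0.16 and 0.21 by library totals to 1.16 and 1.21 with miR-19b-3p alone as the reference. A scaling moves all miRNAs by nearly the same amount, so the distance to the median can hardly change between scalings.

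**Figure D3:**
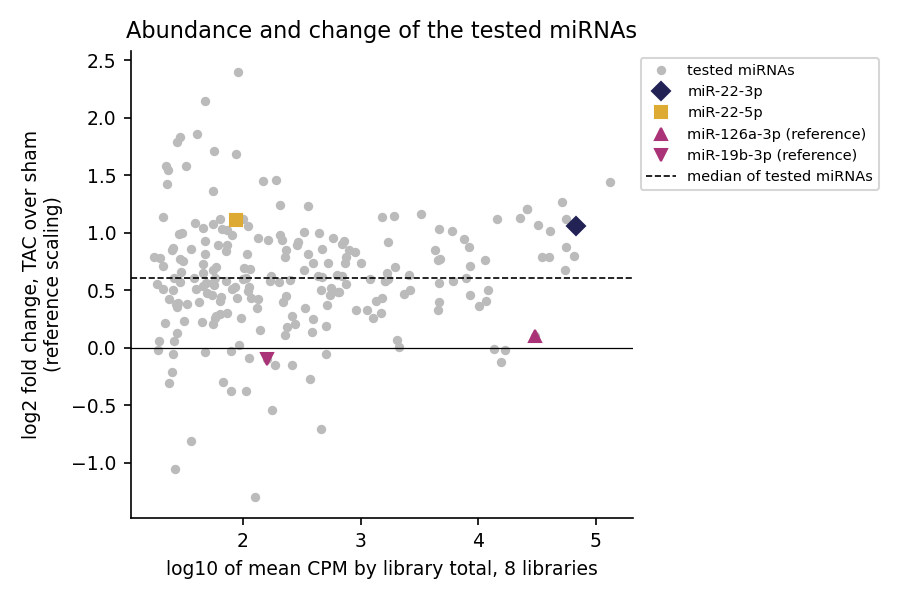
Log2 fold change on the reference scale against mean level for the 223 miRNAs tested, with the 2 arms of miR-22 and the reference miRNAs marked and the level on a log10 axis. miR-22-3p lies at the abundant end and miR-22-5p toward the low end, at nearly the same height of 1.06 and 1.11, above the median of 0.61.

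Within a library, the ratio of miR-22 to another miRNA needs no scaling. miR-22-3p was therefore set against the cardiomyocyte miRNAs and the reference miRNAs, 14 ratios in all for both arms. None of them passed after Benjamini-Hochberg adjustment, with the lowest adjusted p at 0.1, and unadjusted exact permutation tests reached their smallest p of 0.0286 for the 4 ratios whose groups did not overlap. As no smaller p is possible, a single ratio among 14 could not pass the adjustment, however far apart its groups. The failure to pass was thus largely set by the number of mice.

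Against miR-208a-3p, which is made from an intron of the cardiac myosin gene Myh6, miR-22-3p was relatively higher in TAC. There were 103, 150.2, 142 and 108 counts of miR-22-3p per count of miR-208a-3p in sham mice 1 to 4, and 154, 179, 167 and 178 in TAC mice 1 to 4. The groups did not overlap, although sham mouse 2 and TAC mouse 1 were close. The log2 difference was 0.45 (two-sided exact permutation test, p = 0.0286, adjusted p = 0.1). Of the other tested miRNAs taken over miR-208a-3p, miR-22-3p included, 8.56% were higher in TAC without overlap.

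The ratios to the reference miRNAs were also without overlap for miR-22-3p. For either arm these ratios restate the reference scaling library by library, so they are no separate result beside the change on that scale. Per count of miR-126a-3p there were 1.92, 1.56, 1.41 and 1.91 counts in sham and 3.36, 3.47, 2.96 and 3.02 in TAC, a log2 difference of 0.92 (exact permutation test, p = 0.0286, adjusted p = 0.1). Per count of miR-19b-3p there were 278, 258, 325 and 359 counts in sham and 757, 839, 755 and 454 in TAC, a log2 difference of 1.17 (exact permutation test, p = 0.0286, adjusted p = 0.1). TAC mouse 4 was the lowest of its group in the latter ratio and still above every sham mouse. Such separation was common, since 23.9% of the tested miRNAs taken over miR-126a-3p and 41.9% of those taken over miR-19b-3p were higher in TAC without overlap.

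Against the most abundant muscle miRNA the direction was the opposite, without passing the test. Per count of miR-1a-3p there were 0.474, 0.624, 0.763 and 0.541 counts of miR-22-3p in sham and 0.646, 0.515, 0.416 and 0.325 in TAC. The groups overlapped and the log2 difference was -0.36 (exact permutation test, p = 0.229, adjusted p = 0.4). The log2 differences were 0.25 against miR-133a-3p (exact permutation test, p = 0.686), -0.092 against its near-identical relative miR-133b-3p, with which it may share tags (exact permutation test, p = 0.486) and 0.14 against miR-499-5p, from an intron of the myosin gene Myh7b (exact permutation test, p = 0.657). For these partners too the groups overlapped, and single mice turned the direction. Without sham mouse 1 the difference was -0.036 against miR-133a-3p and -0.0031 against miR-499-5p, and without sham mouse 4 it was 0.0035 against miR-133b-3p.

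miR-22-5p gave 1 ratio of 7 without overlap. Per count of miR-19b-3p there were 0.562, 0.280, 0.415 and 0.294 counts in sham and 0.824, 1.04, 1.16 and 0.612 in TAC, a log2 difference of 1.24 (exact permutation test, p = 0.0286, adjusted p = 0.1). Against miR-126a-3p the difference was 0.99 with overlapping groups (exact permutation test, p = 0.0571). Without sham mouse 1, 2 of the ratios of miR-22-5p were free of overlap, and without TAC mouse 1 there were 3. Against the 5 cardiomyocyte miRNAs the log2 differences of miR-22-5p ran from -0.29 for miR-1a-3p to 0.52 for miR-208a-3p, all with overlap.

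**Figure D4:**
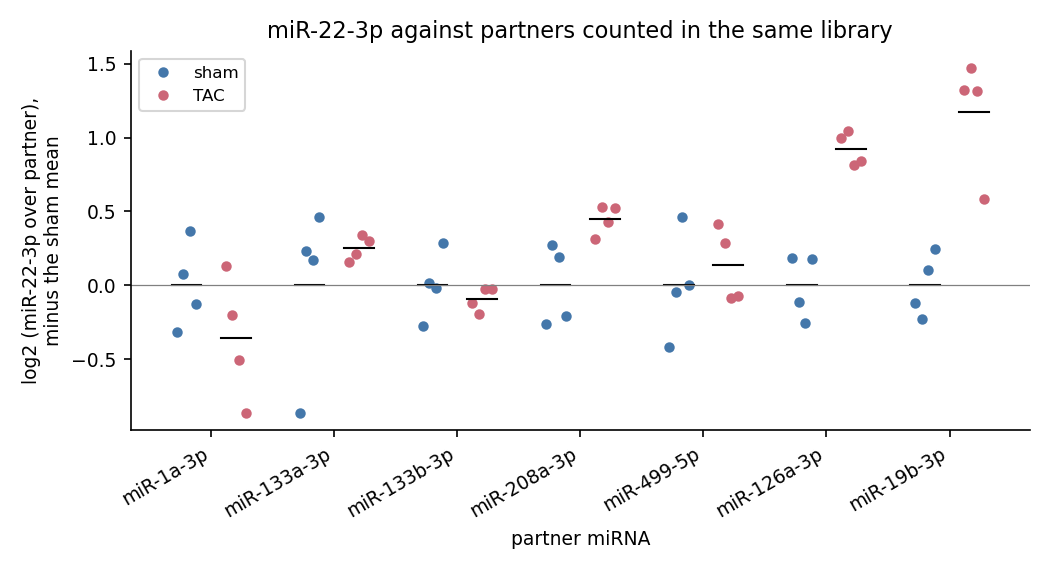
Ratio of miR-22-3p to each of 7 partner miRNAs in the same library, on a log2 axis after subtracting the sham mean of each ratio. Points are single mice and black lines are group means. The groups are apart for miR-208a-3p, miR-126a-3p and miR-19b-3p and overlap for the other 4 partners.

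The arm ratio was far to the side of miR-22-3p in every library. For each 1000 counts of miR-22-3p there were 2.02, 1.08, 1.28 and 0.819 counts of miR-22-5p in sham mice 1 to 4 and 1.09, 1.23, 1.53 and 1.35 in TAC mice 1 to 4. All TAC values lay within the range of the sham values, which was set by sham mice 1 and 4. As a share of both arms miR-22-5p was lowest in sham mouse 4, at 0.0819% (Wilson 95% interval 0.0719% to 0.0932%), and highest in sham mouse 1, at 0.202% (0.184% to 0.221%), so that these mice differed by more than counting error.

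The ratio did not differ detectably between the groups. Per 1000 counts of miR-22-3p the sham mean was 1.30 ± 0.516 and the TAC mean 1.30 ± 0.188 (SD, n = 4 each). edgeR with library and arm as terms gave a log2 change of 0.065 with a standard error of 0.22 (adjusted p = 0.876), and the two-sided exact permutation test gave p = 0.8. The mice of the sham group differed among themselves by more than the group means did. The sign of the change depended on single mice, at -0.12 without sham mouse 4 and -0.018 without TAC mouse 3. Without sham mouse 1 the change stayed positive and was larger, at 0.30.

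The groups did not overlap for 11.4% of the 88 hairpins with both arms above a mean of 20 counts, and miR-22 was not among them. Of these hairpins 2.27% changed their arm ratio at an adjusted p below 0.05. These were miR-199b, which is expressed in fibroblasts and muscle, with a log2 change of -0.94 (standard error 0.23, edgeR, adjusted p = 0.0146), and miR-30a, one of the abundant miR-30 family of the heart, with -0.77 (standard error 0.19, edgeR, adjusted p = 0.0146). Both moved toward their 3p arm. miR-199b-3p has a mature sequence in common with miR-199a-3p, so its counts may be shared between the hairpins and its ratio is uncertain. The absolute change was larger than that of miR-22 in 76 of the hairpins.

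Among the 88 hairpins with both arms above the count threshold, the bias of miR-22 toward 1 arm was among the strongest. miR-22-3p outnumbered miR-22-5p 792-fold by the mean log2 ratio over the 8 libraries, against a median bias of 13.4-fold over the 88 hairpins, of which 37 gave mainly the 3p arm and 51 mainly the 5p arm. A stronger bias was found in 3 of these hairpins, miR-99a and miR-125a toward their 5p arm and miR-27b toward its 3p arm. They were named here after their values were seen. Hairpins with an arm at or below the count threshold were not ranked and may be more one-sided. Under that threshold, a bias as strong as that of miR-22 could be seen only where the main arm was abundant.

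**Figure D5:**
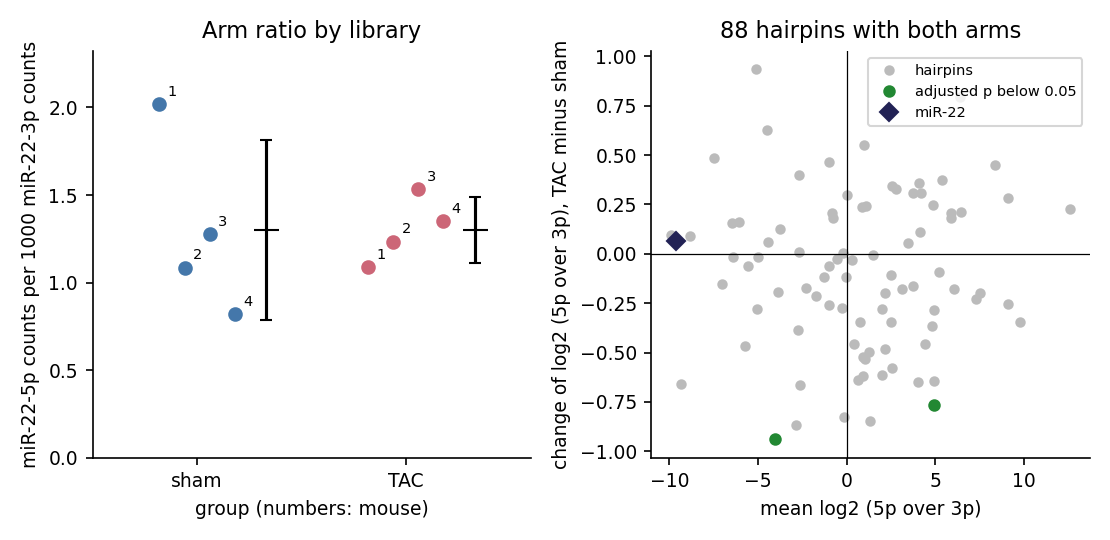
Arm ratio of miR-22 in each library, as counts of miR-22-5p per 1000 counts of miR-22-3p. Beside it are the change of the ratio and the bias of the 88 hairpins with both arms above the count threshold. Bars in the left panel give the mean with SD of 4 mice, and the 2 called hairpins are coloured. The TAC mice lie between 1.09 and 1.53, inside the sham range of 0.819 to 2.02, and miR-22 sits near the 3p end of the hairpins with a change near 0.

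Across the 8 libraries the arms of miR-22 did not vary together per miRNA count. Pearson's r of their log2(CPM + 1) was -0.15 and Spearman's rho 0.12, which put miR-22-5p at place 111 of the 222 other tested miRNAs in likeness to miR-22-3p. Sham mouse 1 held the lowest level of miR-22-3p and the second highest level of miR-22-5p. With 1 reference factor for each library, in place of 1 for the TAC group, r was 0.84. That factor is common to both arms and moves them together, so this value does not show that they vary together. On deviations from the group means, per miRNA count, r was -0.42. These coefficients describe 8 libraries that share their denominators, and they carry no test.

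The miRNAs most like miR-22-3p per miRNA count were miR-128-3p (r = 0.95), miR-1843b-3p (r = 0.90), miR-222-3p (r = 0.88), miR-27b-5p (r = 0.85) and miR-486a-3p (r = 0.80). Those most like miR-22-5p were miR-221-3p (r = 0.90), miR-378a-5p (r = 0.78), miR-98-5p (r = 0.69), let-7g-5p (r = 0.69) and miR-149-5p (r = 0.69). The lists share no member. They depended on the measure, since with Spearman's rho 1 of the 5 stayed among the first 5 for miR-22-3p and 2 for miR-22-5p.

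miR-22 was also set beside 24 other miRNAs known from cardiac hypertrophy and remodelling, a list made with earlier results of these data known. On the reference scale 20 of the 22 tested members had a higher level in TAC at an adjusted p below 0.05, against 63.7% of all tested miRNAs, and 10 also passed the fold change of 1.7, against 36.8% of all tested miRNAs. None was lower. miR-21a-5p and miR-34a-5p did not pass, and miR-132-3p and miR-212-3p were too low to be tested. The median log2 fold change of the list was 0.65, against 0.61 for all tested miRNAs, and by library totals it was -0.24, against -0.29. With TMM only miR-1a-3p, miR-27b-3p and miR-125b-5p passed the adjusted p, all with a higher level in TAC, as did 4.93% of all tested miRNAs.

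A larger change than that of miR-22-3p was found for 5 of them, namely miR-208b-3p, miR-1a-3p, miR-27b-3p, miR-98-5p and miR-24-3p. The largest was that of miR-208b-3p, which is made from an intron of the fetal myosin gene Myh7, at 1.71 (standard error 0.37, edgeR, adjusted p = 0.00327), followed by miR-1a-3p at 1.44. The smallest changes were those of miR-30c-5p at 0.46 (standard error 0.13, edgeR, adjusted p = 0.0123), which was -0.23 with TMM, and of miR-29a-3p, a repressor of collagen mRNAs, at 0.50 (edgeR, adjusted p = 0.0238), which was -0.18 with TMM. miR-22-3p with 1.06 thus lay in the upper part of this list on the reference scale.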

How the data were processed

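The authors deposited, for each of 8 libraries, raw tag counts per mature mouse miRNA, made from cleaned reads. The genome build was mm10 per the labels. The aligner, the miRNA reference version and the treatment of tags that match several miRNAs are not given in the sources used here. Mean counts were nearly equal for miR-199a-3p and miR-199b-3p (9185 and 9184) and for miR-486a-5p and miR-486b-5p (152150 and 151826). Tags of near-identical miRNAs may thus be split between the names or counted in full under each.

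Groups followed the sample labels. Counts were tested with edgeR 4.0.16 (R 4.3.3; glmQLFit, glmQLFTest, group as the only term) on those miRNAs whose mean exceeded 100 counts (223), with Benjamini-Hochberg adjustment. The miRNA totals served as library sizes, and in TAC they were multiplied by 0.537, the factor that sets miR-126a-3p and miR-19b-3p equal between groups (ratio of mean CPM, TAC over sham, averaged geometrically). A miRNA was called at an adjusted p under 0.05 where its fold change also exceeded 1.7. The error of the factor is not part of this p. Standard errors are log2 fold changes divided by the square root of F. Arm ratios were fitted over 88 hairpins with library and arm as terms. Single values were compared by exact permutation over 70 arrangements in Python 3.11.15 (scipy 1.17.1). The methods tie each library to 1 heart while the labels only number the libraries, and p-values measure the spread between these 8 libraries.

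Members, lists and tests were chosen with earlier results of these data known. Beside miR-22, the text names the reference miRNAs, marker lists, neighbours in abundance, the 5 miRNAs most like each arm, called arm ratios and a hypertrophy list with 4 examples of the largest and smallest change. Further members of that list, and 3 hairpins of strong arm bias, were named after their values were seen, where a count was 5 or fewer. Clean tag totals came from the supplement of the study. The mature sequences of 593 of the 697 names were found in the RefSeq table. Alternatives were TMM, library totals with and without the 10 most abundant miRNAs, clean tags, DESeq2 1.42.0, other reference factors, other filters, limma 3.58.1 for the arm ratio, a replicate block and each library left out. The scripts were tested on simulated counts.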

Additional observations from a re-analysis of the deposited data

Results flagged for a closer look

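The log2 ratio of miR-22-5p to miR-126a-3p was -8.01 in sham mouse 1, the highest of its group, and its gap to the nearest other sham mouse was 0.841 of the range of the group, above Dixon's critical value for 4 samples. It was 1 of 34 groups of 4 libraries looked at in this way, and chance flags about 1 in 20 such groups. Sham mouse 1 also had the lowest share of miR-22-3p and the highest arm ratio of its group. Its level of miR-126a-3p, the denominator of the flagged ratio, was 25759 CPM, against 36421 to 50698 CPM in the other sham mice. The part of this low denominator in the flagged value was not tested.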

How the results depend on the processing

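The increase of both arms was positive in all 42 settings tried, 21 per arm, and the scaling decided whether it passed. Of the 21, 16 kept a scaling to the reference miRNAs, which raises the change of every miRNA. These include the main fit read without the fold threshold. Without reference miRNAs the log2 fold changes of miR-22-3p and miR-22-5p were 0.37 and 0.43 with TMM, 0.16 and 0.21 by library totals, 0.39 and 0.45 by totals without the 10 most abundant miRNAs, 0.49 and 0.57 by clean tags, and 0.42 and 0.47 in DESeq2 with its own size factors, and none of these passed (lowest adjusted p = 0.0552, DESeq2). By construction these settings differ from the reference scaling only in the factor between libraries and, for DESeq2, the tool. Calls in the whole table moved alike, from 82 higher and 2 lower miRNAs on the reference scale at the fold threshold to 3 and 10 with TMM and 1 and 23 by totals. On the reference scale with 1 library left out, the values were 0.99 to 1.18 for miR-22-3p and 0.99 to 1.35 for miR-22-5p, and all still passed. The edgeR fits with a library left out were not run on the other scales. The log2 change of the arm ratio ran from -0.12 to 0.30, negative without sham mouse 4 and without TAC mouse 3 (-0.018). Per clean tag, miR-22-3p differed by 0.51 and miR-22-5p by 0.58 (exact permutation test, p = 0.0286 and 0.0857). Another denominator was the miRNA counts without the 10 most abundant miRNAs, to which miR-22-3p itself belongs. On it the differences were 0.40 and 0.47 (exact permutation test, p = 0.0286 and 0.0571), and that of miR-22-3p is a ratio to the remaining miRNAs and not a share. With 1 library left out, the shares of miR-22-3p and miR-22-5p among all miRNA counts differed by 0.047 to 0.24 and by 0.085 to 0.36. The number of ratios of miR-22-5p without overlap was 1 to 3 with 1 library left out. Of the 5 most like miRNAs, 1 stayed for miR-22-3p and 2 for miR-22-5p with Spearman's rho, 2 and 3 with 1 reference factor per library, and 2 and 2 on deviations from the group means.

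The methods speak of 4 pairs of mice without saying that the library numbers mark them. Not every pair of libraries with the same number deviated together (r from -0.37 to 0.31), and the numbers were not taken as pairing; 3 of the 8 libraries correlated best with their own number. With the replicate number as a block the log2 fold changes on the reference scale were 1.07 and 1.14 (edgeR, adjusted p = 0.00281 and 0.00450) and the arm ratio changed by 0.069. With 4 mice per group no exact permutation p can lie below 0.0286, and the 228 to 748 counts of miR-22-5p limit its precision.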
